A study of Mus musculus with 6 samples.

Results

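Mature miRNAs that reports connect with ferroptosis were followed in neuron-like mouse cells after RSL3. They were 10 miRNAs taken by name from the 685 listed in every library: mmu-miR-26a-5p, mmu-miR-26b-5p, mmu-miR-335-5p, mmu-miR-335-3p, mmu-miR-324-5p, mmu-miR-324-3p, mmu-miR-375-3p, mmu-miR-190a-5p, mmu-miR-672-5p and mmu-miR-378a-3p, written below without the mouse prefix. The list was drawn up as miRNAs reported to act on genes of iron handling, glutathione or lipid peroxidation, outside large miRNA clusters. The reports were not checked here, and for miR-672 the report known concerns the other arm. All 10 were present in the tables and all 10 passed the filter on low levels.

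The treated group was N2a cells given 5 µM RSL3 for 24 h. The control group was N2a cells kept at the same DMSO concentration. N2a is a mouse neuroblastoma line, and the cells of both groups had first been changed toward neurons with 10 µM retinoic acid over 96 h in low serum. Each group had 3 small RNA libraries, with no statement that they came from separate cultures. The p-values therefore describe the spread among these libraries, and that spread may be technical. Per the labels RSL3 was given to establish ferroptosis, which the small RNA libraries do not measure. The comparison addresses how miRNAs differ between cells with and without RSL3.

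RSL3 blocks GPX4, the selenoenzyme that turns lipid hydroperoxides into alcohols with glutathione as the electron donor. When it is blocked, iron-catalysed oxidation of polyunsaturated phospholipids goes on unchecked and the cell dies by ferroptosis. The supply of cystine through Slc7a11, the synthesis of glutathione, the storage of iron in ferritin and the ubiquinone reductase FSP1 (Aifm2) all hold that oxidation back, and a miRNA acts on this system by pairing its seed, bases 2 to 8, with the 3′ untranslated region of such a transcript.

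Mature sequences from RefSeq's miRNA table (GRCm38.p6) were used for 8 of the 10. They are shown because the seed, in capitals, sets which transcripts each miRNA can pair with, and because the table separates near-identical relatives by single bases.
miR-26a-5p: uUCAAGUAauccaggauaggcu
miR-26b-5p: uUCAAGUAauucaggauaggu
miR-335-5p: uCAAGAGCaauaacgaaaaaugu
miR-335-3p: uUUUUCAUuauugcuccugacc
miR-324-5p: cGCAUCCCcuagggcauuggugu
miR-324-3p: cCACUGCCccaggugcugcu
miR-190a-5p: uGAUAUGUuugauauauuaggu
miR-190b-5p, a relative of miR-190a-5p outside the 10: uGAUAUGUuugauauuggguug
miR-672-5p: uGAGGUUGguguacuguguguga

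Among these 8 the only shared seed was that of miR-26a-5p and miR-26b-5p. Over the 21 positions they can be compared at, they differed by C11U and C21U, counted from 1 at the 5′ end with the miR-26a-5p base first. The miR-190a-5p seed was shared with miR-190b-5p, from which it differed at 7 positions, the first of them A16U. None of the other 5 seeds was found in a second RefSeq sequence of a listed miRNA. The miRNAs miR-375-3p and miR-378a-3p are given by name.

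Most of these miRNAs arise inside protein-coding genes. In GENCODE M21 (GRCm38) the miR-26 hairpins lie on the same strand as genes of one family of small C-terminal-domain phosphatases: miR-26a-1 in an intron of Ctdspl (chr9:119031796-119031885), miR-26a-2 over an exon of an annotated Ctdsp2 transcript (chr10:126995530-126995613) and miR-26b in an intron of Ctdsp1 (chr1:74394310-74394394). The miR-335 hairpin is in an intron of Mest, an imprinted gene (chr6:30741299-30741396). That of miR-324 is antisense to an intron of Acadvl, which encodes a mitochondrial fatty acid oxidation enzyme, and overlaps an exon of a transcript assigned to Dvl2 (chr11:70012043-70012131). The hairpin of miR-190a is in an intron of the cytoskeletal gene Tln2 (chr9:67236660-67236726) and that of miR-672 in an intron of Nexmif (chrX:104116175-104116274). The miR-378a hairpin is in an intron of Ppargc1b, a coactivator of mitochondrial genes. The miR-375 hairpin lies between genes, with Cfap65 and Cryba2 as the nearest coding neighbours (chr1:74900658-74900721).

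The values are the scaled counts per library that the authors call CPM. The libraries held 3406276 to 4989380 reads on listed miRNAs in the RSL3 group and 4306460 to 6058006 in the DMSO group. Depending on the library 1 read stood for 0.157 to 0.314 CPM, and RSL3 library 2 was the shallowest. All 8 neuronal marker miRNAs chosen were listed. In limma 1 of them, miR-9-5p, reached an unadjusted p under 0.05, against 17.3% of all tested miRNAs, and 0 passed adjustment. The log2 fold changes of these 8 had both signs, such as 0.39 for miR-9-5p, 0.25 for miR-124-3p and -0.23 for miR-137-3p. The most abundant was miR-9-5p, and their summed level was 5996 to 8807 CPM in RSL3 libraries and 5371 to 7270 CPM in DMSO libraries. Of 6 markers of endothelium, fibroblasts and smooth muscle, 4 reached an unadjusted p under 0.05 in limma, against the same 17.3%, and 0 passed adjustment. These 4 did not share a direction. The log2 fold change was 0.38 for miR-126a-3p, and -0.47, -0.52 and -0.34 for miR-126a-5p, miR-145a-5p and miR-199a-3p. The sum of the 6, 36786 to 37921 CPM in RSL3 and 35888 to 39093 CPM in DMSO libraries, was nearly all miR-143-3p. Their part in the values below was not tested.

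The 10 miRNAs covered the range from abundant to barely detected. A mature miRNA gives 1 read per molecule whatever its length, so CPM can be compared between miRNAs, although unequal ligation of different ends was not measured. Averaged over the 6 libraries, miR-26a-5p was the highest at 4896 CPM, which ranked 28th of the 685. Next came miR-378a-3p at 3846 CPM, miR-335-3p at 3374 CPM, miR-26b-5p at 1400 CPM, miR-335-5p at 478 CPM and miR-375-3p at 234 CPM. The remaining 4 were low: miR-324-3p at 19.4 CPM, miR-324-5p at 12.3 CPM, miR-190a-5p at 3.04 CPM and miR-672-5p at 1.77 CPM.

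Neighbours in this order overlapped over the 6 libraries for 3 pairs: miR-378a-3p with miR-335-3p, miR-324-3p with miR-324-5p, and miR-190a-5p with miR-672-5p. Together the 10 held 1.31% to 1.44% of the signal in RSL3 libraries and 1.41% to 1.51% in DMSO libraries. Between 93.0% and 95.8% of that share was miR-26a-5p, miR-26b-5p, miR-335-3p and miR-378a-3p.

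**Figure D1:**
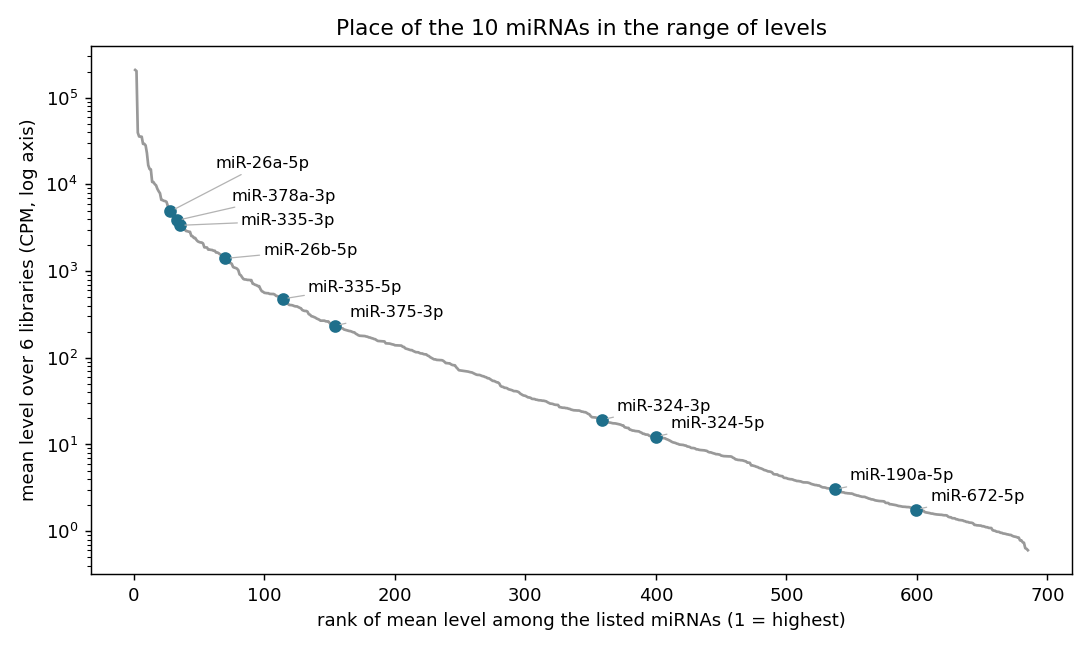
Mean level over the 6 libraries (CPM, log axis) against the rank of that mean among the 685 listed miRNAs. The line is every listed miRNA and the dots are the 10 followed here, which run from miR-26a-5p at 4896 CPM to miR-672-5p at 1.77 CPM.

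None of the 10 passed the test after RSL3. The test was limma on log2(CPM + 1), two-sided, with Benjamini-Hochberg adjustment over the 666 miRNAs that passed the filter and a threshold of 0.05. It called 0 of the 10 higher and 0 lower, while over all tested miRNAs it called 0.601% higher and 0.15% lower. The count among the 10 was also 0 in edgeR, which called 0.751% of all tested miRNAs in either direction. DESeq2 gave an adjusted p for 7 of the 10, not for miR-324-5p, miR-190a-5p and miR-672-5p, and called 0 of those 7, against 10.5% of the 382 miRNAs that had one. At an unadjusted p under 0.05 there was 1 of the 10 in each of limma, edgeR and DESeq2, which was miR-335-5p each time. Over all tested miRNAs that unadjusted share was 17.3% in limma, 17.3% in edgeR and 14.3% in DESeq2, so 1 in 10 was not above the background.

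The direction was also divided. Log2 fold changes were positive for 5 of the 10 and negative for 5, with a median of 0.02, and over all tested miRNAs 50.2% were positive and 49.8% negative, with a median of 0.00. The groups did not overlap for 2 of the 10, miR-375-3p (RSL3 higher) and miR-26b-5p (RSL3 lower). Non-overlap was found for 12.3% of all tested miRNAs with RSL3 higher and for 12% with RSL3 lower.

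For 9 of the 10 the 95% interval of the fold change of CPM + 1 lay within 2-fold in either direction. For miR-672-5p its upper end reached 1.01 on the log2 scale. At the low levels of miR-190a-5p and miR-672-5p the added 1 narrows these intervals. The fold change of miR-672-5p was 1.22 on this scale and 1.39 as a plain ratio of mean CPM. Intervals that narrow still allow changes below 2-fold. For 9 of the 10 the interval included 0, and the exception was miR-335-5p.

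**Figure D2:**
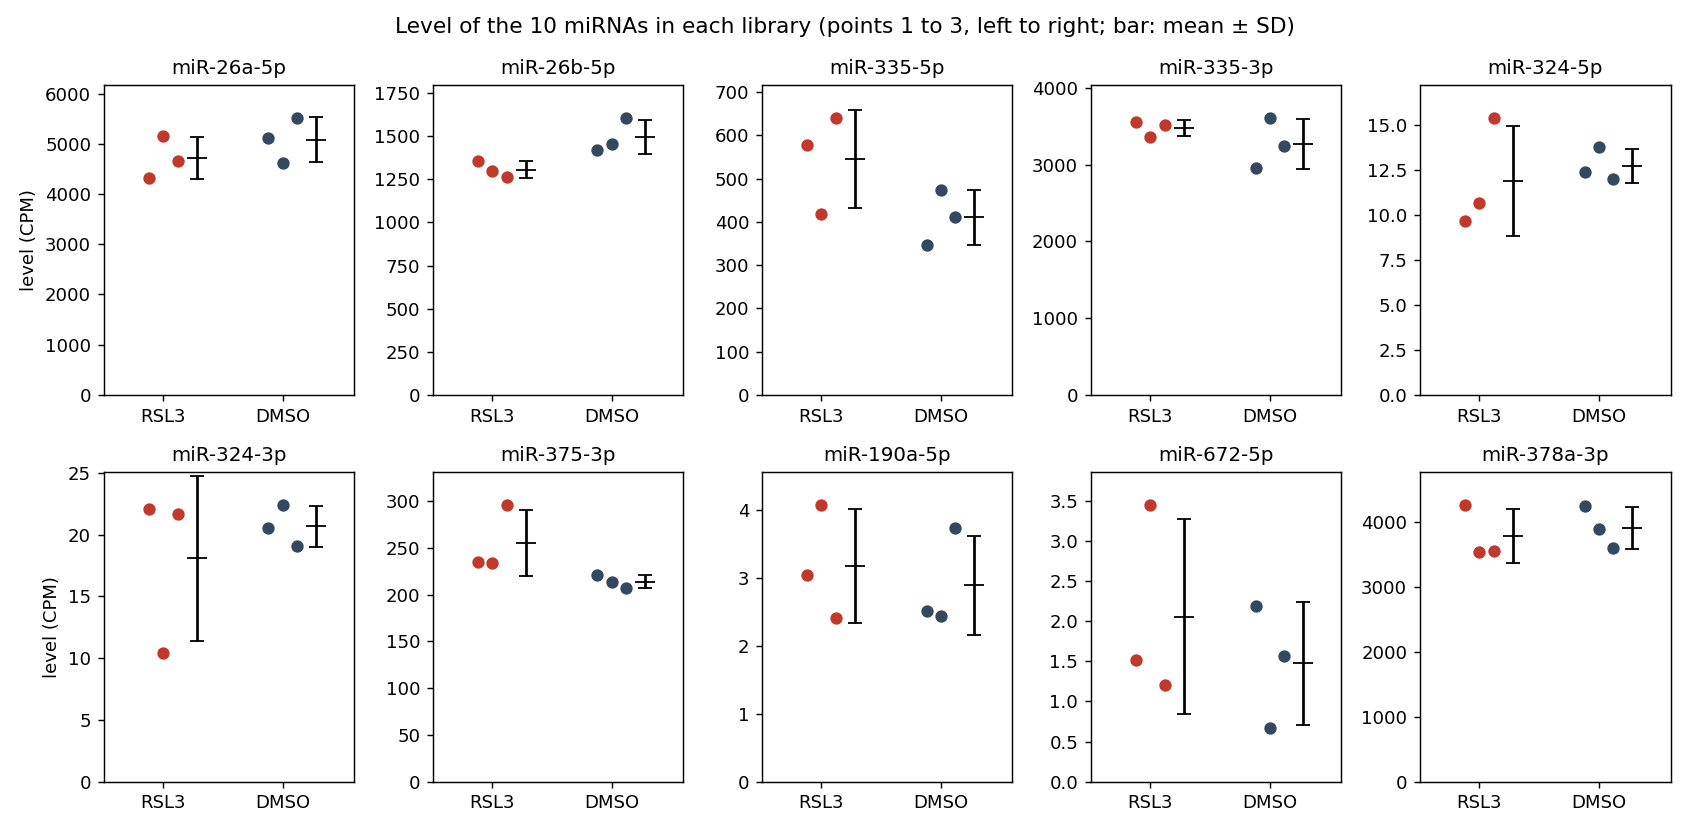
Level (CPM, linear axes from 0) of each of the 10 miRNAs in the 3 RSL3 libraries (red) and the 3 DMSO libraries (dark), with the mean ± SD beside them. The groups overlap in 8 panels, and they are apart for miR-26b-5p and miR-375-3p.

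Among miRNAs reported to act on iron handling, miR-335-5p had the largest fold change of the 10 on the log2(CPM + 1) scale. As a plain ratio of mean CPM, RSL3 over DMSO, it was 1.33, and that of the barely detected miR-672-5p was 1.39. In rat models of Parkinson's disease miR-335 has been reported to lower the ferritin heavy chain, Fth1, which stores iron in a safe form. The level of miR-335-5p was 578, 419 and 640 CPM in RSL3 libraries 1 to 3, against 347, 473 and 411 CPM in DMSO libraries 1 to 3. RSL3 libraries 1 and 3 were above every DMSO library, and RSL3 library 2 lay inside the DMSO range. The log2 fold change was 0.40 ± 0.16 (SE, n = 3 per group, 95% interval 0.05 to 0.75), with an unadjusted limma p of 0.028 and an adjusted p of 0.22. Without RSL3 library 2, where it had 1336 reads, the fold change was 0.58 on the log2 scale and the limma adjusted p 0.024, which is past the threshold. Over all tested miRNAs that fit called 14 higher and 5 lower, against 4 and 1 with all libraries. For miR-335-5p, leaving out any other library gave log2 fold changes of 0.27 to 0.51, and limma adjusted p-values of 0.24 to 0.57.

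The 3p arm of the same hairpin was the more abundant product and differed less. The level of miR-335-3p was 3553, 3366 and 3515 CPM in RSL3 libraries and 2962, 3607 and 3241 CPM in DMSO libraries. All 3 RSL3 values lay inside the DMSO range, and the log2 fold change was 0.09 ± 0.11 (SE, limma adjusted p = 0.70).

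Both arms of miR-335 are shown in capitals within their hairpin, because their balance is compared below.
Mir335, chr6:30741299-30741396, plus strand, GRCm38.p6: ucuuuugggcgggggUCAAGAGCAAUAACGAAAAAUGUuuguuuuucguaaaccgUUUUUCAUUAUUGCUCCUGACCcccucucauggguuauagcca

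From this hairpin the 5p arm was counted at 0.163, 0.125 and 0.182 of the 3p arm in RSL3 libraries and at 0.117, 0.131 and 0.127 in DMSO libraries. The SD of log2((5p + 1)/(3p + 1)) was 0.28 in RSL3 libraries and 0.08 in DMSO libraries (n = 3 each). The difference of the group means, 0.31 ± 0.18 (SE, 95% interval -0.10 to 0.71), had a limma adjusted p of 0.41 over 217 pairs of arms. As with the 5p level, RSL3 libraries 1 and 3 were above every DMSO library and RSL3 library 2 was not.

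Of miRNAs reported to act on cystine uptake and glutathione, miR-375-3p had the groups apart. It is an islet and neuroendocrine miRNA, reported in human gastric cancer cells to act on SLC7A11, the cystine importer. The level of miR-375-3p was 235, 234 and 296 CPM in RSL3 libraries and 221, 214 and 207 CPM in DMSO libraries. Every RSL3 library was above every DMSO library, and RSL3 library 3 was the highest. The log2 fold change was 0.24 ± 0.13 (SE, 95% interval -0.03 to 0.52), and the limma adjusted p of 0.33 was not past the threshold. Without RSL3 library 3 the log2 fold change was 0.13.

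The level of miR-378a-3p differed between the groups by less than the SD of either. This product of the Ppargc1b intron is best known in mouse energy metabolism and has been reported to act on Slc7a11 in neurons exposed to lead. It was at 4261, 3541 and 3549 CPM in RSL3 libraries and 4241, 3891 and 3596 CPM in DMSO libraries. Library 1 was the highest of each group, and the groups overlapped. On the log2 scale the fold change was -0.05 ± 0.12 (SE, 95% interval -0.31 to 0.21, limma adjusted p = 0.85), and it was 0.01 without DMSO library 1.

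Its other arm, miR-378a-5p, was far lower and had the groups apart, as did 12% of all tested miRNAs with RSL3 lower. It was at 28.2, 24.5 and 20.7 CPM in RSL3 libraries and 32.9, 35.1 and 32.1 CPM in DMSO libraries. All 3 RSL3 libraries were below all 3 DMSO libraries. Its log2 fold change was -0.44 ± 0.17 (SE, 95% interval -0.81 to -0.08), with an unadjusted limma p of 0.022 and an adjusted p of 0.19. The log2 ratio of 5p to 3p was -7.22 ± 0.12 in RSL3 libraries and -6.83 ± 0.12 in DMSO libraries (SD, n = 3 each), and its difference of -0.39 ± 0.16 (SE) had an unadjusted limma p of 0.034 and an adjusted p of 0.22.

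Relatives of miR-378a were listed as miR-378b, miR-378c and miR-378d, whose log2 fold changes were 0.23, -0.07 and -0.00. Their adjusted p-values in limma were 0.50, 0.76 and 1. The reads of miR-378c were 19.4% to 21.4% of those of miR-378a-3p in all 6 libraries. For miR-378d that share varied more, from 15.7% to 28.9%. The handling of reads that fit several entries is not given in the sources used here, so the split between these relatives is uncertain.

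Both low members of the glutathione and antioxidant group were at the edge of what the libraries could measure. In rat heart cells miR-190a-5p has been reported to act on GLS2, a glutaminase. It had 12, 13 and 12 reads in RSL3 libraries and 16, 11 and 19 reads in DMSO libraries, which is 3.05, 4.08 and 2.41 CPM in RSL3 libraries and 2.51, 2.44 and 3.74 CPM in DMSO libraries. The groups overlapped and the log2 fold change was 0.10 ± 0.26 (SE, limma adjusted p = 0.86), and -0.05 without RSL3 library 2. Its seed partner miR-190b-5p was higher, at 22.0 ± 2.56 CPM in RSL3 libraries and 25.2 ± 5.90 CPM in DMSO libraries (SD, n = 3 each), with a log2 fold change of -0.17 (limma adjusted p = 0.70).

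The X-linked miR-672-5p had 6, 11 and 6 reads in RSL3 libraries and 14, 3 and 8 reads in DMSO libraries. The other arm of its hairpin, miR-672-3p, has been reported to act on FSP1 in rat spinal cord injury, and the arm measured here is miR-672-5p. Its levels were 1.52, 3.45 and 1.20 CPM in RSL3 libraries and 2.19, 0.666 and 1.57 CPM in DMSO libraries. This gave a log2 fold change of 0.28 ± 0.34 (SE, limma adjusted p = 0.69), and of -0.02 without RSL3 library 2. Counts this low left a 95% interval of -0.45 to 1.01 on the log2 scale.

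For GPX4 itself, the target of RSL3, the miRNA among the 10 reported to act on its transcript is miR-324-3p, in human cancer cells. The level of miR-324-3p was 22.1, 10.4 and 21.7 CPM in RSL3 libraries and 20.5, 22.4 and 19.1 CPM in DMSO libraries. RSL3 library 2, with 33 reads, was below the other 5, and the remaining RSL3 libraries lay near the DMSO values. The log2 fold change was -0.26 ± 0.25 (SE, 95% interval -0.80 to 0.29, limma adjusted p = 0.62). Without RSL3 library 2 it turned to 0.08.

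The 5p arm, miR-324-5p, which in other settings restrains Hedgehog signalling through Gli1, was at 9.66, 10.7 and 15.4 CPM in RSL3 libraries and 12.4, 13.8 and 12.0 CPM in DMSO libraries. RSL3 libraries lay on both sides of the DMSO range. Its log2 fold change was -0.11 ± 0.21 (SE, limma adjusted p = 0.82), and 0.02 without RSL3 library 1.

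The miR-324 hairpin is known for switching arms when terminal uridylyl transferases add uridines to its precursor, so the arms are shown in capitals and their balance was compared.
Mir324, chr11:70012043-70012131, plus strand, GRCm38.p6: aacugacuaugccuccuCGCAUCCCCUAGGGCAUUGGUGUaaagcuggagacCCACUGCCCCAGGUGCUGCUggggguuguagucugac

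The 3 DMSO libraries had close values, with 0.603, 0.614 and 0.629 of a 5p read per 3p read. The RSL3 libraries lay on both sides of these values, at 0.437, 1.03 and 0.713. The log2 ratio was -0.51 ± 0.58 in RSL3 libraries and -0.66 ± 0.03 in DMSO libraries (SD, n = 3 each). Their difference of 0.15 ± 0.30 (SE, 95% interval -0.50 to 0.80) had a limma adjusted p of 0.84, and it was -0.13 without RSL3 library 2. Whether the spread itself differed was not tested, and the reads per arm were 33 to 108 in RSL3 libraries and 61 to 131 in DMSO libraries. Counting error enters each ratio at such counts, and its size was not estimated. Whether the close DMSO values or the RSL3 spread are a property of the cells was not tested.

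**Figure D3:**
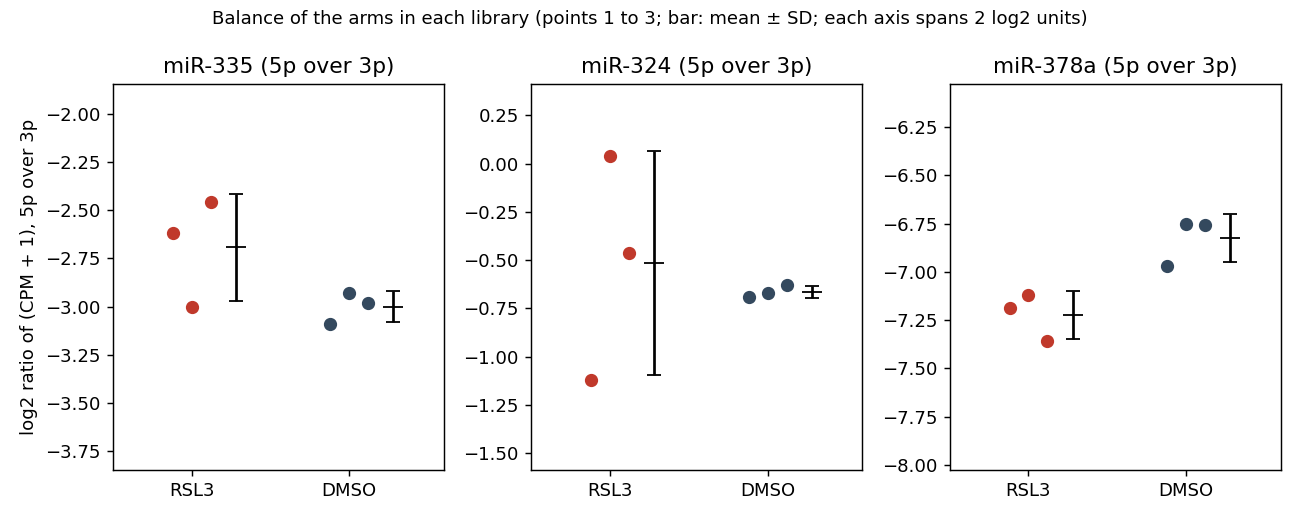
Log2 ratio of (CPM + 1) of the 5p arm over the 3p arm in each RSL3 library (red) and DMSO library (dark) for miR-335, miR-324 and miR-378a, with the mean ± SD. Each axis spans the same range in log2 units. The miR-378a groups are apart, with means of -7.22 in RSL3 and -6.83 in DMSO libraries, and the miR-335 and miR-324 groups overlap. How many of all pairs of arms have the groups apart was not counted.

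Both miR-26 members had lower means in RSL3 libraries, and neither passed the test. The family is known for repressing the Polycomb methyltransferase Ezh2. The level of miR-26a-5p was 4324, 5154 and 4655 CPM in RSL3 libraries and 5106, 4625 and 5510 CPM in DMSO libraries. The groups overlapped, and the log2 fold change was -0.11 ± 0.12 (SE, 95% interval -0.37 to 0.15, limma adjusted p = 0.67).

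For miR-26b-5p the values were 1356, 1300 and 1262 CPM in RSL3 libraries and 1422, 1456 and 1604 CPM in DMSO libraries. All 3 RSL3 libraries were below all 3 DMSO libraries. The log2 fold change was -0.19 ± 0.11 (SE, 95% interval -0.42 to 0.04), with an unadjusted limma p of 0.094 and an adjusted p of 0.37. Under every scaling tried it stayed negative, from -0.25 to -0.15.

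Since both share a seed, their levels were also summed. The sum was 6017 ± 396 CPM in RSL3 libraries and 6575 ± 518 CPM in DMSO libraries (SD, n = 3 each), with an exact permutation p of 0.2, where 3 against 3 libraries allow no p below 0.1. The log2 ratio of miR-26a-5p to miR-26b-5p was 1.85 ± 0.16 in RSL3 libraries and 1.76 ± 0.09 in DMSO libraries (SD, n = 3 each; two-sided exact permutation p = 0.4). The group means of that ratio differed by 0.084, less than the SD in either group.

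The passenger arms were rare. The entry miR-26a-2-3p had 15 to 30 reads in RSL3 libraries and 17 to 26 reads in DMSO libraries, with a log2 fold change of 0.42 ± 0.28 (SE, limma adjusted p = 0.44). The entry miR-26b-3p had 1 to 8 reads in RSL3 libraries and 2 to 7 reads in DMSO libraries (log2 fold change 0.15, limma adjusted p = 0.84). The mature miR-26a-5p is identical from the miR-26a-1 and miR-26a-2 hairpins, so its ratio to miR-26a-2-3p sets the 5p reads of both hairpins against the 3p reads of one and is no arm balance of a single hairpin. That log2 ratio was 9.46 ± 0.44 in RSL3 and 10.0 ± 0.53 in DMSO libraries (SD, n = 3 each; limma adjusted p = 0.32). For miR-26b the log2 ratio of 5p to 3p was 9.35 ± 0.57 in RSL3 and 9.70 ± 0.51 in DMSO libraries (SD, n = 3 each; limma adjusted p = 0.59).

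Of the 5 pairs of arms among these miRNAs, 0 had a changed ratio after adjustment in limma and 1, miR-378a, had an unadjusted p under 0.05. Over all 217 pairs of arms 1.38% were called, all toward the 3p arm, and 20.7% had an unadjusted p under 0.05.

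**Figure D4:**
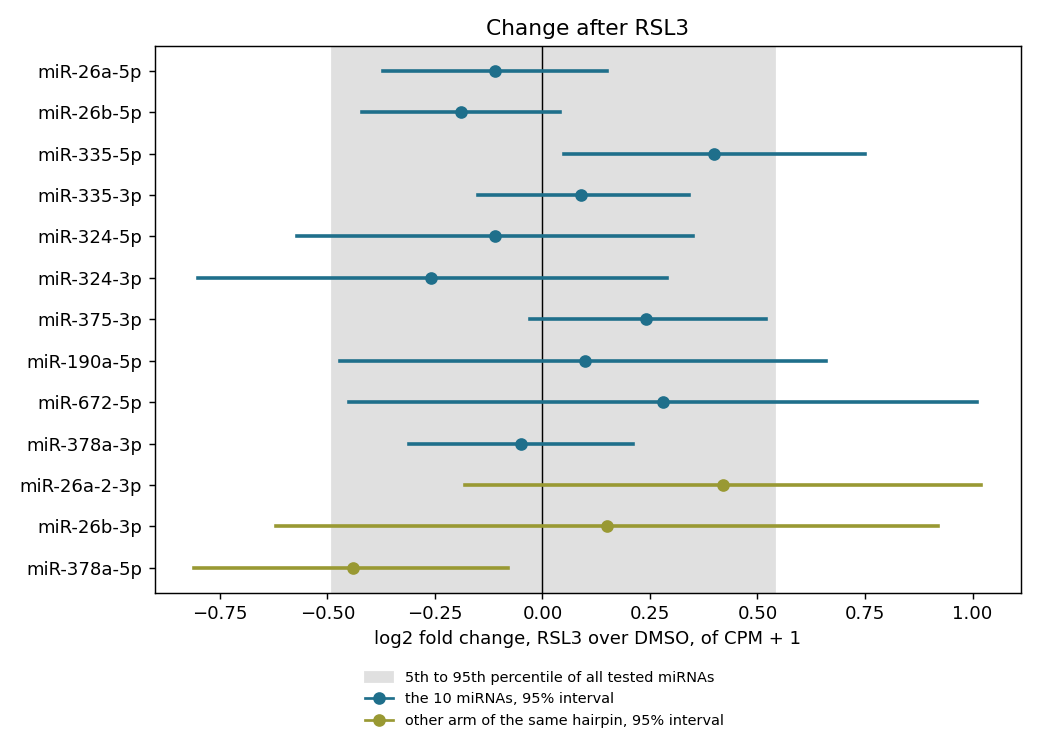
Log2 fold change of RSL3 over DMSO, on CPM + 1, with 95% intervals, for the 10 miRNAs (blue) and 3 other arms of their hairpins (olive). The grey band spans the 5th to 95th percentile of all 666 tested miRNAs, from -0.49 to 0.54, and all 10 estimates lie inside it.

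A wider group of miRNAs reported in ferroptosis was read in the same way. A list of 69 further names was written from general knowledge, of which 58 were listed and tested. In limma 0 of the 58 passed, with 8 higher and 6 lower at an unadjusted p under 0.05, against 8.86% and 8.41% of all tested miRNAs. The list median was 0.06, with 32 positive and 26 negative log2 fold changes. In edgeR 0 of the 58 passed. DESeq2 gave 51 of them an adjusted p and called 1, miR-145a-5p, against 10.5% of all miRNAs with one.

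The 3 with the smallest p were miR-145a-5p, miR-212-5p and miR-101a-3p. The smooth muscle miRNA miR-145a-5p was at 666 ± 78.4 CPM in RSL3 libraries and 952 ± 93.0 CPM in DMSO libraries (SD, n = 3 each), with a limma adjusted p of 0.063 and a DESeq2 adjusted p of 0.014. The activity-linked miR-212-5p was at 123 ± 15.2 CPM in RSL3 libraries and 168 ± 20.8 CPM in DMSO libraries (SD, n = 3 each), with a limma adjusted p of 0.11. In the other direction miR-101a-3p, a repressor of Ezh2, was at 2409 ± 207 CPM in RSL3 libraries and 1872 ± 167 CPM in DMSO libraries (SD, n = 3 each), with a limma adjusted p of 0.11.

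Profiles were compared by the root mean square difference of centred log2(CPM + 1) values over the 6 libraries. For 3 of the 10 miRNAs, the profiles most like theirs were taken from 416 other miRNAs with a mean of at least 10 CPM. For miR-26a-5p they were miR-1843b-5p and miR-1843a-5p, at 0.023 and 0.041. For miR-335-5p they were miR-465a-5p at 0.124 and miR-669a-3-3p at 0.136, both with RSL3 library 2 below the other RSL3 libraries. For miR-324-5p they were miR-470-3p at 0.100 and miR-28a-5p at 0.142. All 6 libraries entered, so the likeness holds both the treatment and the spread between replicates.

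To show which ferroptosis transcripts these seeds could pair with in the mouse, the reverse complement of bases 2 to 8 was searched on the transcript strand of the longest 3′ untranslated region in GENCODE's basic coding transcripts of 30 genes fixed as a list. The motifs were TACTTGA for miR-26a-5p and miR-26b-5p, GCTCTTG for miR-335-5p, ATGAAAA for miR-335-3p, GGGATGC for miR-324-5p, GGCAGTG for miR-324-3p, ACATATC for miR-190a-5p and CAACCTC for miR-672-5p. A match is a run of letters and not a shown site of action.

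In the 30 genes the miR-26 motif was found in 3 (Slc7a11, Acsl4 and Gclm), against 9.67% of 20962 genes with such a region. The miR-335-5p motif was found in 5 (Slc7a11, Lpcat3, Aifm2, Gclc and Gclm), against 11.9%, and that of miR-335-3p in 7, against 19.7%. The miR-324-5p motif was in 4 genes (Slc7a11, Steap3, Gch1 and Keap1), against 7.39%, and that of miR-324-3p in 4 (Fth1, Steap3, Gch1 and Gclm), against 12.6%. The miR-190a-5p motif was in 2 (Slc7a11 and Ncoa4), against 6.32%, and the miR-672-5p motif in 3 (Steap3, Sat1 and Cisd1), against 7.27%. The median length of the region was 756 bases in the list and 955 bases over all genes, and that of Slc7a11 was the longest of the list at 7364 bases.

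Some of the matches in 4 of these transcripts are printed, with the motif in capitals. The transcripts encode the cystine importer, the iron store and both subunits of glutamate-cysteine ligase, the first enzyme of glutathione synthesis. Slc7a11 and Gclm held further matches that are not printed, among them those of miR-335-5p. Coordinates are GRCm38.
miR-26 in Slc7a11, chr3:50365024-50365050, minus strand: gtgtttgtatattttTACTTGAaaata
miR-26 in Gclm, chr3:122269151-122269177, plus strand: acattaaatttgaacTACTTGAattta
miR-335-5p in Gclc, chr9:77793797-77793823, plus strand: cactgaattctgctaGCTCTTGaaaag
miR-324-3p in Fth1, chr19:9984968-9984994, plus strand: tttactggtcactgaGGCAGTGcatgc

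Only 3 of the reported pairs were searched, and in none of them was the full motif in the region. These were miR-335-5p in Fth1 (156 bases), miR-324-3p in Gpx4 (221 bases) and miR-190a-5p in Gls2 (495 bases). The reported pairs of miR-375-3p, miR-378a-3p and miR-672-3p were not searched. This says only that these letters are absent from those windows in the mouse annotation. The levels of these transcripts were not measured in the small RNA libraries.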

How the data were processed

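Small RNA libraries from total RNA were sized for inserts of microRNA length and sequenced on an Illumina instrument, per the labels' protocols. The submitters' processing notes name cutadapt, Bowtie, edgeR and the build GRCm38, while settings, versions and how reads with several matches were assigned were not stated. The authors deposited 1 signal value per mature miRNA, named CPM. Plain CPM had been assumed, but sums per library were 949375 to 1068892. All values were whole multiples of 1 step per library within 0.01 (100%), and the divisor equalled reads times edgeR's TMM factor (0.936 to 1.05). The whole reads recovered were used for count tests as alternatives.

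R 4.3.3 with limma 3.58.1 was run with a trended variance prior on log2(CPM + 1), for miRNAs at 1 CPM or more in at least 3 libraries (666 of 685). Fold changes on this scale understate changes of low miRNAs. Alternatives used edgeR 4.0.16, DESeq2 1.42.0, other pseudocounts, filters and scalings, a replicate block and leaving out each library. The fits were run on simulated data with planted changes larger than those of the 10. The power for changes as small as theirs was not measured. Depth limits the low miRNAs: 3 reads, the limit that a count of 0 allows, equal 0.470 to 0.941 CPM, for counting error only. The miRNAs named are the 10, other arms of their hairpins and relatives by seed or only by name. Also named are the 2 most similar profiles of 3 of the 10, the 3 smallest p of the wider list and some marker miRNAs. The 10 miRNAs and all lists were chosen with earlier results of these data known.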

Additional observations from a re-analysis of the deposited data

How the results depend on the processing

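In DESeq2 7 of the 10 miRNAs had an adjusted p, and with a filter at 10 CPM miR-190a-5p and miR-672-5p were not tested. Among the members tested, 0 were called higher and 0 lower in every setting tried, with 1 exception. Leaving out 1 library gave 0 to 1 higher, the 1 being miR-335-5p without RSL3 library 2. The number at an unadjusted p under 0.05, 1 as reported, was 0 without a variance trend, 0 with a replicate block and 0 to 2 over the left-out libraries. After rescaling without the 5 most abundant miRNAs it was 1 again, but a different miRNA: miR-26b-5p had an unadjusted p of 0.033 and miR-335-5p 0.051. Calls in the wider list of 58, 0 as reported, were 1 after that rescaling, 1 in DESeq2 and 0 to 2 over the left-out libraries.

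Over all miRNAs 4 were called higher as reported, 1 without a variance trend, 1 with the replicate block, 19 in DESeq2 and 1 to 14 over the left-out libraries. Lower calls, 1 as reported, numbered 3 with a filter at 10 CPM, 12 after that rescaling, 0 with median centring, 0 without a trend, 0 with the block, 21 in DESeq2, where 284 miRNAs had an adjusted p of NA, and 0 to 12 over the left-out libraries. Changed arm ratios, 3 as reported, were 1 with a pseudocount of 0.5, 14 with 5, 10 with both arms at 10 CPM, 2 without a trend, 1 with the block and 1 to 3 over the left-out libraries.

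Some signs turned when 1 library was left out, among them miR-324-3p (-0.26 with all libraries) and miR-672-5p (0.28). The log2 fold changes then spanned -0.30 to 0.02 for miR-324-5p, -0.43 to 0.08 for miR-324-3p, -0.05 to 0.25 for miR-190a-5p, -0.02 to 0.49 for miR-672-5p, -0.14 to 0.01 for miR-378a-3p, -0.15 to 0.46 for miR-26b-3p and -0.28 to 0.21 for miR-378d, and the miR-324 arm ratio -0.13 to 0.45. The sign of miR-378d also turned with median centring, edgeR and DESeq2 (0.04 each). The sum of miR-26a-5p and miR-26b-5p differed by -805 to -288 CPM and their log2 ratio by 0.014 to 0.171, with 1 sign throughout. The cause was not tested.

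Same-numbered libraries did not deviate together: the correlations of their deviations from the group means over 666 miRNAs were -0.35, -0.33 and -0.19. No library correlated best with its own number. Deviations from a mean of only 3 libraries are tied to each other, so these values cannot decide whether same-numbered libraries shared a culture.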
